A study of Mus musculus with 6 samples.

Results

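The polyamine metabolism genes comprised 10 genes, chosen by symbol for their part in polyamine synthesis, breakdown and antizyme control. They were Odc1, Amd1, Amd2, Srm, Sms, Sat1, Smox, Oaz1, Oaz2 and Azin1, out of 49315 genes in the count tables, and all 10 passed the filter on low counts. RNA was sequenced from gastrocnemius, the large calf muscle, of mice aged 3 months on a mixed C57BL/6 and 129 background. One group was 3 libraries labelled mKO, with Hnrnpu, the gene of an RNA-binding protein of the nucleus, knocked out in muscle only. The other was 3 WT libraries. The sources used here give neither the Cre driver nor the deleted exons, and the labels do not say whether a library came from 1 animal or several.

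Total counts ranged from 32108684 to 38095211 in mKO libraries and from 34871043 to 42344238 in WT libraries. Levels are counts per 1000000 (CPM) on library sizes scaled with TMM factors, which were 1.15 to 1.2 in mKO and 0.845 to 0.859 in WT libraries. Log2 fold changes are mKO over WT from edgeR's quasi-likelihood test, with adjusted p-values over all 16650 genes tested and a threshold of 0.05. Scaling to library totals instead moved the median of all genes (log2) to 0.49, against 0.02 with TMM factors, so each direction below was checked under both scalings. The Hnrnpu count itself was 205 to 210.4 CPM in mKO and 233 to 247 CPM in WT libraries (log2 -0.20, edgeR adjusted p = 0.147). With library totals it was called higher (0.27, edgeR adjusted p = 0.0402, the lowest over all alternatives, which reached 0.336). The count summed all exons and so does not check a deletion of some of them. Fibre markers defined the tissue in both groups, with Acta1, Ckm, Ttn and the other 6 listed genes summing to 174698 to 206727 CPM in mKO and 281111 to 302022 CPM in WT libraries.

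Polyamines (putrescine, spermidine and spermine) are small positively charged molecules that bind RNA, ATP and ion channels and are needed for translation and growth. Ornithine decarboxylase (Odc1) makes putrescine, and S-adenosylmethionine decarboxylase (Amd1) supplies the aminopropyl groups that Srm and Sms add to give spermidine and then spermine. Sat1 acetylates polyamines for export or oxidation, and Smox turns spermine back into spermidine with release of hydrogen peroxide. Antizymes (Oaz1, Oaz2) bind ornithine decarboxylase and send it to the proteasome, and Azin1, a relative of ornithine decarboxylase without its activity, captures antizyme. In mouse muscle, Smox is known to be repressed in several kinds of wasting.

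Amd1, Amd2, Smox, Odc1 and Oaz1 were lower in mKO muscle and Sat1 was higher, while Srm, Sms, Oaz2 and Azin1 did not pass the test. The falls were 6.98-fold for Amd1, 6.59-fold for Smox, 2.10-fold for Odc1 and 1.51-fold for Oaz1, and the rise of Sat1 was 1.91-fold. Thus 5 of 10 genes were called lower and 1 higher, against 18.9% of all tested genes called lower and 18.2% called higher (37.0% in either direction). With library totals 4 were called lower and 4 higher, against 6.75% and 49.0% of all genes. The calls of Amd1, Amd2, Smox, Odc1 and Sat1 held under both scalings, whereas that of Oaz1 did not. The CPM values of the groups did not overlap for 6 of the 10 genes, and for 49.3% of all tested genes. The median log2 fold change of the 10 genes was -0.44. Amd1 and Amd2 are near-identical copies, so their falls are not separate measurements. In whole muscle, fewer cells of a type and less RNA per cell cannot be told apart, for any gene given here.

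**Figure D1:**
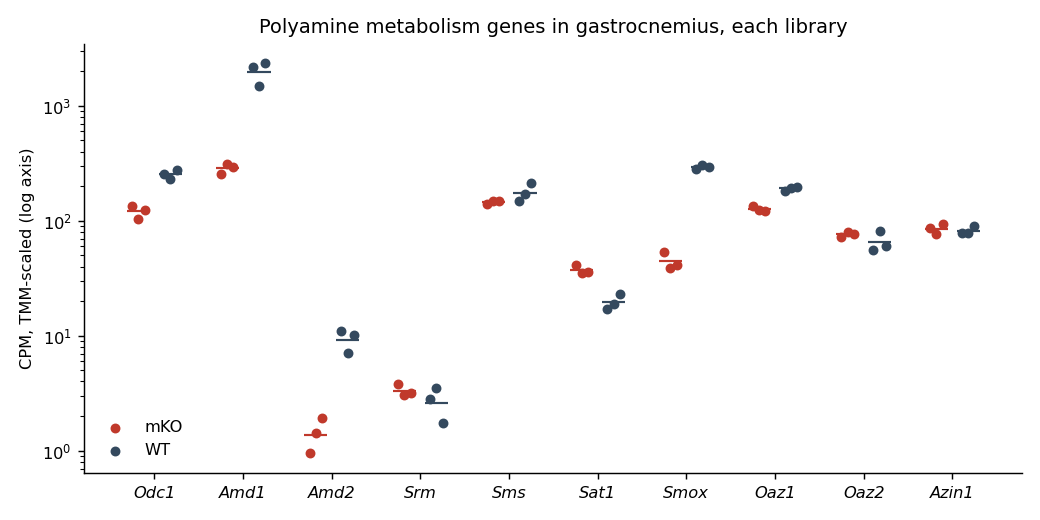
TMM-scaled CPM (log axis) of each of the 10 genes in the 3 mKO libraries (red, left) and the 3 WT libraries (dark, right), with 1 point per library and a line at the geometric mean. The groups are apart for Odc1, Amd1, Amd2, Sat1, Smox and Oaz1 and overlap for the other 4 genes.

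Odc1 (ENSMUSG00000011179; GRCm38 chromosome 12, 17544873 to 17551502, plus strand), the gene of the first enzyme, had 135, 104 and 125 CPM in mKO replicates 1 to 3, against 254, 229 and 279 CPM in WT replicates 1 to 3. Every mKO library was below every WT library. Odc1 averaged 121 ± 15.6 CPM in mKO and 254 ± 24.9 CPM in WT muscle (SD, n = 3 each), a log2 fold change of -1.07 (SE 0.13, edgeR adjusted p = 4.45e-05). The fall was smaller with library totals (log2 -0.60, edgeR adjusted p = 0.00178; over all alternatives the adjusted p was 3.66e-15 to 0.00178). Inside the gene, on the same strand and outside its exons, lies the 136-base small nucleolar RNA gene Gm22748 (17546146 to 17546281). It was chosen after its values were seen, and fell to 49, 47 and 25 counts in mKO replicates 1 to 3, against 175, 150 and 217 counts in WT replicates 1 to 3 (log2 -2.54, SE 0.24, edgeR adjusted p = 7.41e-06), also with library totals (-2.07). Whether these counts are reads of the small RNA or of unspliced Odc1 transcripts was not tested.

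Amd1 (ENSMUSG00000075232; chromosome 10, 40287458 to 40302186, minus strand) is the gene of S-adenosylmethionine decarboxylase. It had 256, 309 and 292 CPM in mKO replicates 1 to 3, against 2177, 1471 and 2332 CPM in WT replicates 1 to 3. The lowest WT library, replicate 2, was still well above the highest mKO library. Amd1 averaged 286 ± 27.1 CPM in mKO and 1993 ± 459 CPM in WT muscle (SD, n = 3 each). Its log2 change was -2.80 with an SE of 0.17 (edgeR adjusted p = 3.07e-07), and between -2.99 and -2.34 over 16 alternatives, all of them called. By mean CPM Amd1 ranked 284th of the 16650 tested genes in mKO and 49th in WT muscle. It took 0.0307 to 0.0361% of all counts in mKO libraries and 0.125 to 0.197% in WT libraries.

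Amd2 (ENSMUSG00000063953; chromosome 10, 35708675 to 35711892, minus strand) is a near-identical copy of Amd1. Whether Amd2 encodes an active enzyme was not tested. Its values were 0.947, 1.44 and 1.92 CPM in mKO replicates 1 to 3, against 10.99, 7.11 and 10.2 CPM in WT replicates 1 to 3 (log2 -2.72, SE 0.26, edgeR adjusted p = 7.35e-06). The groups were apart, at 43 to 71 counts in mKO and 232 to 363 counts in WT libraries. In GENCODE M21 transcripts the coding sequences of both genes are 1005 bases long and differ at 1 base, and the whole transcripts differ at 14 of 3204 aligned bases. The 80 coding bases around that base, numbers 756 to 835 counted from the A of the start codon, are shown because they hold the whole coding difference between the copies. The differing base is in capitals (G796C, Amd1 base first), and both stretches are on the minus strand of GRCm38, at chr10:40290147-40290226 for Amd1 and chr10:35710725-35710804 for Amd2.
Amd1: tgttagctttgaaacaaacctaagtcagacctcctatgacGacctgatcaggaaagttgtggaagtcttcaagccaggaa
Amd2: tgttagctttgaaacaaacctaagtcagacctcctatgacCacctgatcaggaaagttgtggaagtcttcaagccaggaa

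Reads assigned to Amd2 were few beside those of Amd1 in both groups. There were 3.70, 4.65 and 6.57 Amd2 counts per 1000 Amd1 counts in mKO replicates 1 to 3, against 5.05, 4.84 and 4.35 in WT replicates 1 to 3, and these ranges overlapped. The 5 pseudogenes named Amd-ps were looked up after the values of Amd1 were seen. Their summed counts also overlapped between groups, with 5.88 to 8.51 per 1000 Amd1 counts in mKO and 5.44 to 6.39 in WT libraries. Of those aligned with the Amd1 coding sequence, Amd-ps4 differs at 3 of 1003 bases and Amd-ps6 at 56 of 995. Amd-ps3, with 52 to 69 counts in mKO and 192 to 388 in WT libraries, was not aligned. Whether the Amd2 and pseudogene counts are reads of Amd1 transcripts was not tested. Summing Amd1 with Amd2 left the log2 fold change at -2.80, and adding the pseudogenes, an alternative chosen after seeing the data, also gave -2.80.

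Srm, the spermidine synthase gene (ENSMUSG00000006442; chromosome 4, 148591503 to 148594993, plus strand), had low counts. It had 171, 137 and 117 counts in mKO replicates 1 to 3, against 85, 115 and 62 counts in WT replicates 1 to 3. These are 3.77, 3.08 and 3.16 CPM in mKO and 2.84, 3.53 and 1.73 CPM in WT libraries, with WT replicate 2 above the lowest mKO value. The log2 fold change was 0.31 with a 95% interval of -0.24 to 0.86 (edgeR adjusted p = 0.37), and only library totals among 16 alternatives called it (0.77, edgeR adjusted p = 0.0221; range over alternatives 0.0221 to 0.868). Sms, the spermine synthase gene (ENSMUSG00000071708; chromosome X, 157443855 to 157492287, minus strand), had 140, 148 and 147 CPM in mKO replicates 1 to 3, against 147, 170.1 and 215 CPM in WT replicates 1 to 3. The groups overlapped narrowly, and the WT libraries were the more spread. Its log2 fold change was -0.29 with a 95% interval of -0.59 to -0.00046 (edgeR adjusted p = 0.108). Leaving out WT replicate 1 called Sms lower (log2 -0.42, edgeR adjusted p = 0.0334), and library totals turned the sign (0.17, edgeR adjusted p = 0.28); the adjusted p was 0.0334 to 0.427 over all alternatives.

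The 2 breakdown genes went in opposite directions. Smox (ENSMUSG00000027333; chromosome 2, 131491496 to 131525922, plus strand), the gene of spermine oxidase, had 53.6, 39.1 and 41.5 CPM in mKO replicates 1 to 3, against 283, 308 and 293 CPM in WT replicates 1 to 3. Every mKO library was far below every WT library. The means were 44.7 ± 7.77 CPM in mKO and 295 ± 12.6 CPM in WT muscle (SD, n = 3 each), with a log2 fold change of -2.72 (SE 0.14, edgeR adjusted p = 9.03e-08). By p-value Smox ranked 14th and Amd1 40th of the 16650 genes tested, and by size of fall they ranked 52nd and 47th of the 6724 genes with a lower level in mKO and a mean of at least 1 CPM.

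Sat1 (ENSMUSG00000025283; chromosome X, 155213132 to 155216449, minus strand), the gene of spermidine/spermine acetyltransferase, had 41.5, 35.2 and 35.8 CPM in mKO replicates 1 to 3, against 17.04, 18.9 and 22.9 CPM in WT replicates 1 to 3. All mKO libraries were higher. Sat1 averaged 37.5 ± 3.47 CPM in mKO and 19.6 ± 3.02 CPM in WT muscle (SD, n = 3 each), a log2 fold change of 0.93 (SE 0.13, edgeR adjusted p = 0.000147) that was called under all 16 alternatives. Sat1 is expressed in many cell types, and markers of macrophages, and some of other cell types given below, moved with it. All 10 listed macrophage genes rose under both scalings, and their sum was 591 to 989 CPM in mKO and 283 to 342 CPM in WT libraries, with none at 0. Among all tested genes, 18.2% were called higher with TMM factors and 49.0% with library totals. The part of these cell types in the level of Sat1 was not tested.

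Other cell types moved as well, beside 18.2% of all tested genes called higher and 18.9% called lower (49.0% and 6.75% with library totals). Of 9 fibre markers, 7 fell and none rose (5 fell with library totals), with a median log2 fold change of -1.014. Endothelial markers fell in 6 of 6 genes, and in 2 with library totals (142 to 157 CPM summed in mKO, 225 to 299.7 in WT). Of 6 markers of fibro-adipogenic progenitors, 2 rose and none fell (5 rose with library totals), with sums of 2044 to 2299 CPM in mKO and 1614 to 1762 in WT libraries. Satellite cell markers rose in 2 and fell in 1 of 5 (none fell with library totals), with sums of 14.98 to 17.1 CPM in mKO and 9.19 to 13.9 in WT libraries. Of 3 erythroid genes 2 fell under both scalings, and of 3 smooth muscle genes 1 rose and 1 fell, the fall being lost with library totals. None of the tested Schwann cell (4), adipocyte (3) and neutrophil (2) markers was called, apart from 1 neutrophil gene called higher with library totals, and the 3 T cell genes did not pass the filter. Their part in the polyamine genes was not tested.

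Antizyme genes and their inhibitor differed among themselves. Oaz1 (ENSMUSG00000035242; chromosome 10, 80826656 to 80829290, plus strand), the gene of the common antizyme, had 134, 123 and 122 CPM in mKO replicates 1 to 3, against 183, 193 and 197 CPM in WT replicates 1 to 3. The groups were clearly apart, with a log2 fold change of -0.59 (SE 0.10, edgeR adjusted p = 0.000783). With library totals the difference was -0.13 and was not called (edgeR adjusted p = 0.331; range over alternatives 5.05e-07 to 0.331). Oaz2 (ENSMUSG00000040652; chromosome 9, 65668001 to 65690300, plus strand) had 71.5, 79.97 and 77.4 CPM in mKO replicates 1 to 3, against 55.6, 80.6 and 60.4 CPM in WT replicates 1 to 3. WT replicate 2 stood above all mKO libraries and the other WT libraries below them. The log2 fold change was 0.22 with a 95% interval of -0.08 to 0.52 (edgeR adjusted p = 0.239). Without WT replicate 2 it was 0.39 (edgeR adjusted p = 0.0151) and with library totals 0.68 (edgeR adjusted p = 0.00114), both called, and the adjusted p was 0.00114 to 0.621 over all alternatives.

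Both antizyme messages carry the site at which ribosomes shift frame when polyamines are plentiful, the feature that makes antizyme a polyamine sensor. The 30 bases around it, from GENCODE M21 transcripts, are shown because they set Oaz1 and Oaz2 side by side, with the last codon of the first frame and its stop codon in capitals. They differ at 2 of 30 bases and lie on the plus strand of GRCm38, at chr10:80828280-80828309 for Oaz1 and chr9:65686257-65686286 for Oaz2.
Oaz1: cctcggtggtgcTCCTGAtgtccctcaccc
Oaz2: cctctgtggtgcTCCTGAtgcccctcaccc
Frame use cannot be read from gene counts and was not analysed here.

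Azin1 (ENSMUSG00000037458; chromosome 15, 38487430 to 38519266, minus strand), the antizyme inhibitor gene, had 86.0, 77.1 and 94.4 CPM in mKO replicates 1 to 3, against 78.4, 78.3 and 90.5 CPM in WT replicates 1 to 3. The groups overlapped, and the means were 85.8 ± 8.67 CPM in mKO and 82.4 ± 6.997 CPM in WT muscle (SD, n = 3 each). The log2 fold change was 0.06 with a 95% interval of -0.19 to 0.31 (edgeR adjusted p = 0.731). Without mKO replicate 3 its sign turned (-0.0099), and with library totals Azin1 was called higher (0.52, edgeR adjusted p = 0.0022; range over alternatives 0.0022 to 0.969).

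**Figure D2:**
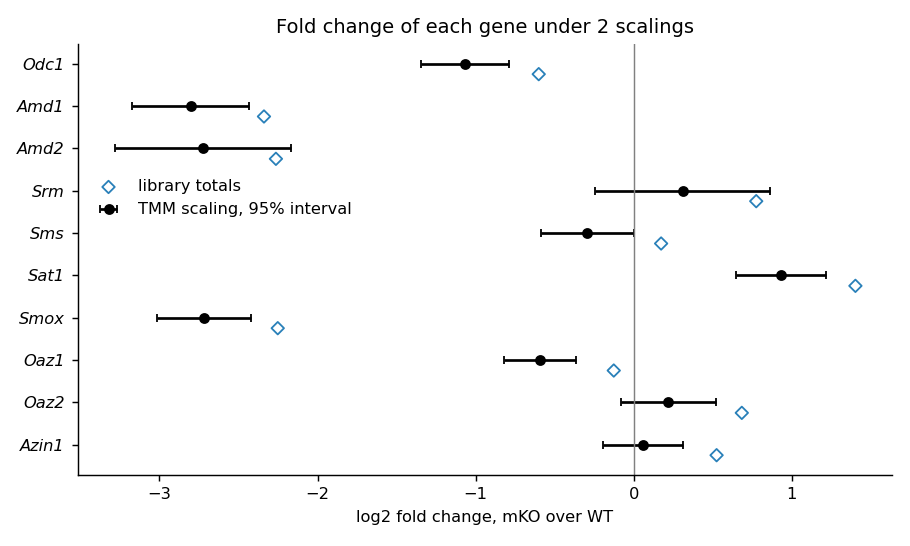
Log2 fold change (mKO over WT) of the 10 genes with TMM scaling (black points with 95% intervals) and with library totals (open diamonds). Amd1, Amd2, Smox and Odc1 lie below 0 and Sat1 above 0 under both scalings, and the sign of Sms changes.

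Ratios of 2 genes within a library do not depend on how the libraries were scaled, and 10 such ratios of raw counts were compared. The largest shift was that of Smox over Sat1, which was 1.29, 1.11 and 1.16 in mKO replicates 1 to 3, against 16.6, 16.3 and 12.8 in WT replicates 1 to 3. The ratio of oxidase to acetyltransferase reads was thus 12.8-fold lower in mKO libraries, with the groups far apart. Smox over Sms, the oxidase against the synthase of spermine, was 0.384, 0.265 and 0.282 in mKO and 1.92, 1.81 and 1.36 in WT replicates 1 to 3 (5.49-fold lower). Amd1 over Odc1, the ratio of the decarboxylases, was 1.90, 2.97 and 2.34 in mKO and 8.58, 6.42 and 8.36 in WT replicates 1 to 3 (3.27-fold lower). Amd1 therefore differed between groups by more than Odc1 did, whichever scaling is used.

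The ratios of Oaz1 and of Azin1 to Odc1 were higher in mKO libraries. Oaz1 over Odc1 was 0.999, 1.19 and 0.976 in mKO replicates 1 to 3, against 0.721, 0.843 and 0.706 in WT replicates 1 to 3 (1.39-fold higher). Azin1 over Odc1 was 0.639 to 0.757 in mKO and 0.309 to 0.342 in WT libraries (2.19-fold higher), and Azin1 over Oaz1 was 0.625 to 0.775 in mKO and 0.406 to 0.460 in WT libraries (1.57-fold higher). Oaz2 over Oaz1 was 0.532 to 0.648 in mKO and 0.304 to 0.418 in WT libraries (1.78-fold higher). Sat1 over Odc1 was 0.287 to 0.339 in mKO and 0.0671 to 0.0823 in WT libraries (4.04-fold higher). Srm over Sms was 0.0208 to 0.0270 in mKO and 0.00808 to 0.0207 in WT libraries, apart by a narrow margin. For 9 of the 10 ratios the groups did not overlap, and each had an exact two-sided permutation p of 0.1, the smallest that 3 against 3 libraries can give (0.111 adjusted over 10 ratios). The ratios share genes, so they are not separate results, and the share over other gene pairs was not computed. Of single genes tested, 49.3% did not overlap between groups under TMM scaling. Amd1 over Amd2 overlapped, with 152 to 270.3 in mKO and 198 to 230 in WT libraries (exact permutation p = 1).

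**Figure D3:**
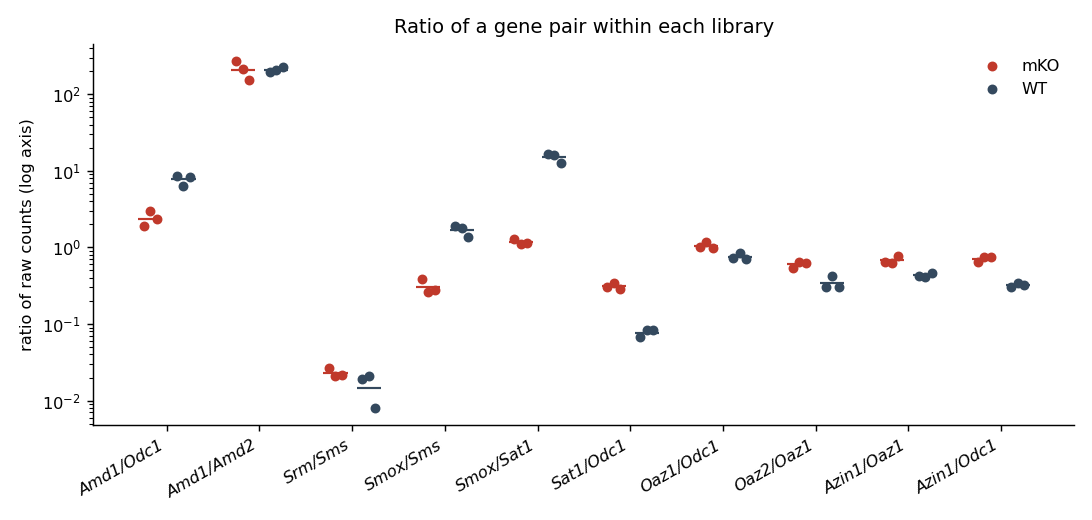
Ratio of raw counts of 2 genes (log axis) in each mKO library (red, left) and WT library (dark, right), with a line at the geometric mean. Smox/Sat1 lies between 1.11 and 1.29 in mKO and between 12.8 and 16.6 in WT libraries, and Amd1/Amd2 is the ratio whose groups overlap.

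Levels of different genes were compared per kilobase of summed exon length, as CPM per kilobase. In mKO muscle the order was Amd1 (80.6 ± 7.64), Oaz1 (49.5 ± 2.70), Odc1 (47.6 ± 6.13), Oaz2 (25.5 ± 1.45), Sms (24.1 ± 0.767), Azin1 (13.8 ± 1.39), Sat1 (13.5 ± 1.25), Smox (11.5 ± 1.99), Srm (2.09 ± 0.236) and Amd2 (0.446 ± 0.151). In WT muscle it was Amd1 (563 ± 130), Odc1 (99.7 ± 9.79), Smox (75.7 ± 3.24), Oaz1 (74.6 ± 2.80), Sms (29.5 ± 5.69), Oaz2 (21.9 ± 4.44), Azin1 (13.2 ± 1.12), Sat1 (7.07 ± 1.09), Amd2 (2.93 ± 0.634) and Srm (1.69 ± 0.565), all as mean ± SD of 3 libraries. Neighbours whose SD ranges overlapped were Oaz1 and Odc1, Oaz2 and Sms, and Azin1, Sat1 and Smox in mKO muscle, and Smox and Oaz1, and Sms and Oaz2, in WT muscle. Amd1 made up 26.8 to 32.9% of the summed level of the 10 genes in mKO libraries and 56.2 to 66.4% in WT libraries. Smox took 3.79 to 5.10% in mKO and 7.50 to 10.7% in WT libraries, and Sat1 4.77 to 5.54% in mKO and 0.664 to 0.920% in WT libraries. As a share of all counts, the 10 genes took 0.108 to 0.111% in mKO and 0.217 to 0.296% in WT libraries.

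**Figure D4:**
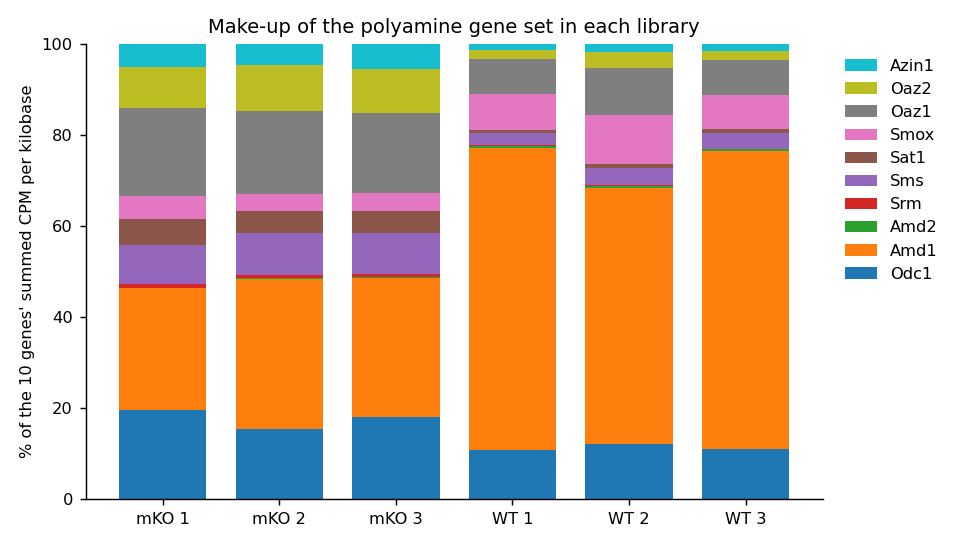
Share (%) of each gene in the summed CPM per kilobase of the 10 genes, with 1 stacked bar for each mKO library (left) and WT library (right). Amd1 fills 26.8 to 32.9% of the mKO bars and 56.2 to 66.4% of the WT bars.

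The genes with a pattern most like that of 3 of these genes were found by the distance between centred log2 CPM values over the 6 libraries, among 7327 genes with a mean of at least 10 CPM. Nearest to Amd1 were Mrln, the gene of the calcium pump inhibitor myoregulin (12.2 ± 0.665 CPM in mKO and 75.3 ± 15.1 CPM in WT muscle, SD, n = 3 each), and then Ociad2, Mylk4, Mettl11b and Gm44250, at distances of 0.27 to 0.64. Nearest to Smox were Padi2, the gene of a peptidylarginine deiminase (4.57 ± 0.986 CPM in mKO and 32.0 ± 5.79 CPM in WT muscle), Slc40a1, the iron exporter gene (4.53 ± 1.57 CPM in mKO and 30.4 ± 3.68 CPM in WT muscle), Tspan8, Gm44250 and Rhou (0.41 to 0.63). Nearest to Sat1 were 1110019D14Rik, Baz1a, Dnajb4, Zfp568 and 2610306M01Rik (0.23 to 0.30). These genes were chosen for their likeness over the same libraries, so their direction is no separate result.

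Beyond these 10, 50 further genes of the pathway were listed by role, and 36 of them passed the filter on low counts. Of these, 9 rose (18.2% of all tested genes did) and 10 fell (18.9% of all tested genes), with a median log2 fold change of 0.05. With library totals 20 were called higher and 5 lower, against 49.0% and 6.75% of all genes. Supply of ornithine and interconversion came first. Oat, the mitochondrial enzyme that links ornithine with glutamate, had 161, 163 and 148 CPM in mKO replicates 1 to 3, against 301, 232 and 265 CPM in WT replicates 1 to 3 (log2 -0.76, SE 0.12, edgeR adjusted p = 0.000382). Paox, the oxidase of acetylated polyamines, had 2.09, 2.54 and 1.86 CPM in mKO and 4.34, 3.74 and 4.39 CPM in WT replicates 1 to 3 (log2 -0.94, SE 0.21, edgeR adjusted p = 0.0032). Neither was called with library totals (edgeR adjusted p = 0.0606 for Oat and 0.0704 for Paox, the highest over all alternatives). Sat2, a relative of Sat1 named for its sequence, had 6.13, 6.31 and 5.26 CPM in mKO and 2.94, 2.88 and 3.02 CPM in WT replicates 1 to 3 (log2 1.00, SE 0.17, edgeR adjusted p = 0.000709). Azin2, the other antizyme inhibitor gene, averaged 2.37 ± 0.346 CPM in mKO and 2.18 ± 0.505 CPM in WT muscle (SD, n = 3 each; edgeR adjusted p = 0.729). The arginase genes were near or at 0, with 1 count of Arg1 in each mKO library and 8, 1 and 1 in WT replicates 1 to 3, and 3 counts of Arg2 in mKO replicate 2 and none elsewhere.

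Transport genes moved in both directions: of 9 tested, 4 rose and 2 fell, against 18.2% and 18.9% of all tested genes. Under library totals 5 were called higher and 1 lower, against 49.0% and 6.75% of all genes. Slc7a1, which carries arginine and ornithine into cells, had 9.56, 12.6 and 11.2 CPM in mKO replicates 1 to 3, against 2.27, 3.00 and 2.21 CPM in WT replicates 1 to 3 (log2 2.16, SE 0.19, edgeR adjusted p = 3.71e-06). Slc3a2, the heavy chain of several amino acid exchangers, had 55.4, 40.8 and 47.0 CPM in mKO and 14.5, 17.2 and 16.4 CPM in WT replicates 1 to 3 (log2 1.57, SE 0.13, edgeR adjusted p = 3.25e-06). The P5B ATPases, a family whose members Atp13a2 and Atp13a3 move polyamines across membranes, were split. Atp13a2 rose to 15.7 ± 1.23 CPM in mKO, against 10.5 ± 0.911 CPM in WT muscle, and Atp13a3 to 93.4 ± 8.06 CPM in mKO, against 59.4 ± 11.4 CPM in WT muscle (SD, n = 3 each; edgeR adjusted p = 0.00383 and 0.00297). Atp13a5 of the same family fell to 0.639, 1.08 and 0.27 CPM in mKO replicates 1 to 3, against 12.6, 8.77 and 14.1 CPM in WT replicates 1 to 3 (log2 -4.12, SE 0.34, edgeR adjusted p = 2.78e-06). Slc7a2, another arginine carrier, was called lower by a narrow margin (log2 -0.34, edgeR adjusted p = 0.045), a call that held in 7 of 16 alternatives and whose sign turned with library totals (0.12).

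In the methionine cycle, which makes the S-adenosylmethionine that Amd1 uses, and in the salvage of its by-product, 1 of 15 tested genes rose and 5 fell, against 18.2% and 18.9% of all tested genes. With library totals 8 were called higher and 3 lower, so the balance of this list turned with the scaling (49.0% and 6.75% of all genes). Mat2a, the synthetase of S-adenosylmethionine in muscle, had 196, 196 and 180.2 CPM in mKO replicates 1 to 3, against 243, 218 and 297 CPM in WT replicates 1 to 3 (log2 -0.41, SE 0.13, edgeR adjusted p = 0.0234). That call held in 12 of 16 alternatives. It was lost without mKO replicate 3 (log2 -0.36), without WT replicate 3 (-0.28), with library totals (0.06) and with the replicate number as a block (-0.40), with edgeR adjusted p of 0.102, 0.105, 0.705 and 0.0514. Mtr, methionine synthase, fell to 18.3 ± 1.10 CPM in mKO, against 40.2 ± 2.76 CPM in WT muscle (SD, n = 3 each; log2 -1.14, edgeR adjusted p = 8.35e-06). Gnmt, which methylates glycine, fell to 6, 6 and 3 counts in mKO replicates 1 to 3, against 19, 34 and 44 counts in WT replicates 1 to 3 (log2 -3.02, edgeR adjusted p = 0.000406). The salvage enzymes Adi1 (log2 -0.93, edgeR adjusted p = 0.000306) and Apip (log2 -0.60, edgeR adjusted p = 0.000914) fell, Apip without a call under library totals (-0.13). Mtap, the first salvage enzyme, averaged 14.03 ± 2.22 CPM in mKO and 12.03 ± 1.64 CPM in WT muscle (SD, n = 3 each; edgeR adjusted p = 0.285), and was called higher with library totals alone (0.68, edgeR adjusted p = 0.00209). Cth, which makes cysteine from cystathionine, rose to 6.49 ± 1.17 CPM in mKO, against 3.35 ± 0.192 CPM in WT muscle (log2 0.95, edgeR adjusted p = 0.00151).

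Spermidine is also the donor of hypusine, an amino acid found in the translation factor encoded by Eif5a. Of the 4 genes of this step 1 was called higher and none lower, and 3 were called higher with library totals (18.2% and 49.0% of all tested genes). Dhps, the first hypusination enzyme, had 9.12, 8.71 and 8.42 CPM in mKO and 7.15, 6.41 and 6.41 CPM in WT replicates 1 to 3 (log2 0.40, SE 0.14, edgeR adjusted p = 0.0439), a call that held in 7 of 16 alternatives. Eif5a itself had 183, 174 and 176 CPM in mKO and 139, 186 and 136 CPM in WT replicates 1 to 3, with overlapping groups (log2 0.21, 95% interval -0.08 to 0.49, edgeR adjusted p = 0.24). Eif5a was called higher with library totals (0.67, edgeR adjusted p = 0.000986) and without WT replicate 2 (0.36, edgeR adjusted p = 0.0165), and the adjusted p reached 0.568 over the alternatives.

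Known regulators of these genes moved as well. Myc, whose protein activates Odc1 in many cells, had 6.43, 5.59 and 5.05 CPM in mKO replicates 1 to 3, against 1.40, 1.012 and 1.82 CPM in WT replicates 1 to 3 (log2 2.01, SE 0.24, edgeR adjusted p = 4.02e-05). Nfe2l2, which encodes the oxidative stress factor NRF2, had 55.8, 59.5 and 54.1 CPM in mKO and 26.1, 25.2 and 28.2 CPM in WT replicates 1 to 3 (log2 1.09, SE 0.11, edgeR adjusted p = 8.26e-06). Both calls held under both scalings, and whether these regulators bear on the polyamine genes was not tested.

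**Figure D5:**
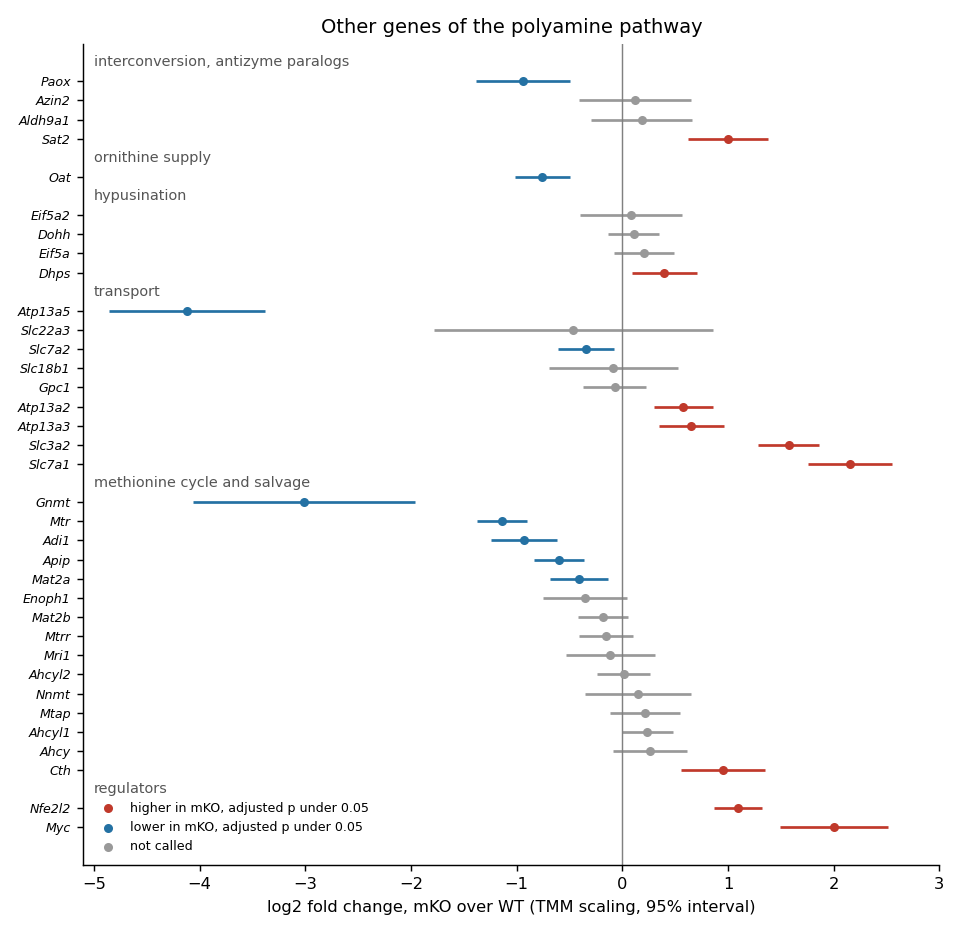
Log2 fold change (mKO over WT, TMM scaling) with 95% intervals of tested genes of the wider pathway, grouped by role. Red points rose and blue points fell at an edgeR adjusted p under 0.05. Slc7a1 (2.16) and Myc (2.01) lie farthest right and Atp13a5 (-4.12) farthest left.

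Promoter sequences from RefSeq (GRCm38.p6) were found for 8 of the 10 genes, in 9 entries of 250 bases before and 50 after a start. Motifs searched on both strands included the E-box bound by MYC (CACGTG), the cyclic AMP response element (TGACGTCA), the core of the ATF4 composite site (TGATGNAA) and the core of the antioxidant response element bound by NRF2 (TGACNNNGC). The E-box was found in 1 entry, of Sms, against 7.15% of all 32851 promoters. Sites outside these windows, such as in introns, were not searched. The antioxidant core was found in Smox and Oaz1, against 12.4% of all promoters. The cyclic AMP and ATF4 motifs had no match in these windows, and are found in 1.79% (cyclic AMP) and 3.97% (ATF4) of all promoters. The 250 bases before a RefSeq start of genes that fell (Amd1, Smox) and of the gene that rose (Sat1) are shown so that the sequence before a start of genes with opposite changes can be compared, with motif matches in capitals. They are at chr10:40302189-40302438 (minus strand) for Amd1, chr2:131491612-131491861 (plus strand) for Smox and chrX:155216450-155216699 (minus strand) for Sat1. The Smox stretch lies inside the gene as counted, which begins at 131491496. It precedes a later start and is not upstream of the whole gene. Among the entries searched but not shown, that of Oaz2 (65676298 to 65676547) also lies inside its gene as counted. So does the Sms entry at 157491369 to 157491618.
Amd1: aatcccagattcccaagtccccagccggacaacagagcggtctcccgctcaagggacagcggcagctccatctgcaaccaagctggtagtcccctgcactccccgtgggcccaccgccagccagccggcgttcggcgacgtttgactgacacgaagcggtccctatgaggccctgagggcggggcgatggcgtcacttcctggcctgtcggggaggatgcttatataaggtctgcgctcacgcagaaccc
Smox: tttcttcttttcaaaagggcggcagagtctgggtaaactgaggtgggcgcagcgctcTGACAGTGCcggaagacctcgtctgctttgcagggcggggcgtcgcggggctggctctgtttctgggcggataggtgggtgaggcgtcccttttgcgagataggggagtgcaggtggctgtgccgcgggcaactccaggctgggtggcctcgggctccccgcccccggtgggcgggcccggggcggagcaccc
Sat1: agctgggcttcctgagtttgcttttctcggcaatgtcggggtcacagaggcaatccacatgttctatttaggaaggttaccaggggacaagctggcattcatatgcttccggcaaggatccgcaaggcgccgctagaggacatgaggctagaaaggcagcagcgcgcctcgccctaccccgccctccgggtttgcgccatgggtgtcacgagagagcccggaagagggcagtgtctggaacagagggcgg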

How the data were processed

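The authors deposited raw counts per Ensembl gene, 1 table per library, with exon coordinates and summed exon lengths, per the file headers. The submitters' processing notes name STAR 2.5.2b, Trimmomatic 0.36, and Subread 1.5.2 with featureCounts, and the build GRCm38. Per the labels' protocols Trizol was used for RNA and a NEBNext Ultra RNA kit for the libraries. Treatment of strand, pairs and reads mapping to several places is not given in the sources used here, which leaves near-identical copies uncertain. Symbols matched 48970 of 49315 genes.

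Groups came from the sample titles. Depths were 32108684 to 42344238 counts. Within each group, libraries differed by more than sampling noise (chi-square per degree of freedom 20.9 to 57.7). Since no label names the animals, the p-values measure only the spread among these samples. The test was edgeR 4.0.16 in R 4.3.3 (quasi-likelihood, TMM, default filter by group, group as the only term, Benjamini-Hochberg over 16650 genes), and adjusted p-values come from it, except that ranges over alternatives include DESeq2 and limma-voom. Steps were tested on simulated data with 200 genes changed. Those counts were drawn on the TMM-scaled library sizes, so they cannot check the choice of scaling. Standard errors are the log2 change divided by the root of F. Ratios used raw counts and an exact permutation test over libraries.

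The members and lists (6 pathway lists, 11 marker lists) were chosen with earlier results of these data known. All 10 members are named, with called pathway genes (up to 6 a list by lowest p), a fixed set of 12 related genes, and the 5 nearest patterns of 3 members. One gene that this rule takes is counted in the list totals but, like 1 motif searched, is not reported here. Alternatives were other scaling factors, DESeq2 1.42.0, limma-voom (limma 3.58.1), other filters, a robust fit, the replicate number as a block, abundant genes left out, each library left out, and Amd copies summed.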

Additional observations from a re-analysis of the deposited data

How the results depend on the processing

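Among the settings tried, the one that moved most was scaling. With library totals 9283 genes were called (87.9% of them higher, against 49.0% with TMM factors), 4 of the 10 polyamine genes were called higher and 4 lower, and 20 of the wider pathway genes higher and 5 lower. With library totals the sign turned for Hnrnpu (0.27), Sms (0.17), and 9 wider pathway genes, among them Slc7a2 (0.12) and Mat2a (0.0598), which had been called lower; Gpc1, Mat2b and Mtrr were then called higher. Amd1, Amd2 and Smox changed order with the setting: the fall of Smox was larger than that of Amd1 without mKO replicate 1, WT replicate 1 or WT replicate 3. Leaving out single libraries gave log2 changes of -0.0099 to 0.1373 for Azin1, the lowest without mKO replicate 3, and -0.0534 to 0.2601 for Azin2, the lowest without WT replicate 2; neither was called. Leaving out each library in turn gave 4766 to 6255 genes called, 1 to 2 polyamine genes higher and 5 to 6 lower, and 8 to 9 wider pathway genes higher and 8 to 10 lower. The second rise was Oaz2 without WT replicate 2, and the sixth fall was Sms without WT replicate 1. Over the same 6 fits the log2 differences of the ratios were -1.87 to -1.55 for Amd1/Odc1, -0.22 to 0.19 for Amd1/Amd2, 0.20 to 0.88 for Srm/Sms, where WT replicate 3 had the lowest ratio, and -3.80 to -3.61 for Smox/Sat1. DESeq2, limma-voom, other factors and other filters left the counts of the 10 genes called at 1 higher and 5 lower.

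With the replicate number as a block 5519 genes were called, with 1 polyamine gene higher and 5 lower, and 8 wider pathway genes in each direction. Same-numbered libraries of the 2 groups did not deviate together (r = 0.02, -0.002 and 0.02), and not every library correlated best with its own number, so the numbers were not taken to pair the samples.

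Srm, Amd2, Gnmt and the arginase genes had few counts. So did other named genes, among them Azin2 (53 to 125 counts), Paox (69 to 157) and, in WT libraries, Myc (33 to 65). Their values are less certain, and the effect of depth on their calls was not tested. The cause of the differences between settings was not tested.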
